A study of Mus musculus with 16 samples.

Results

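Maoa and Dio2 encode enzymes that act on small signalling molecules, monoamines and thyroid hormone, and both had more RNA in macrophages that had met beta-glucan a week earlier. They are the 2 rows of the deposited comparison table that carry these gene names, out of 3071 genes listed there and 17130 genes tested by the study's authors. Both were chosen by the difference in their normalized counts between the groups in this same contrast, in which 17.9% of the genes tested were listed and 6.3% were listed as higher with beta-glucan. Their levels are therefore a description, with no p-value. Bone marrow cells of aged C57BL/6 mice, whose age is not given in the labels, were grown into macrophages over 7 days with 10 ng/mL of the growth factor M-CSF, and RNA was taken from these cultures. The 8 beta-glucan libraries came from cells given 10 µg/mL beta-glucan, a yeast cell wall polysaccharide taken from Candida albicans, for 24 hours and then left to rest for 7 days. The 8 control libraries came from cells given PBS and the same rest. Culture, strain and rest are thus shared by all 16 libraries, and the labels do not say which libraries came from the same mouse.

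Monoamine oxidase A, the product of Maoa, is a flavoenzyme of the mitochondrial outer membrane that oxidises serotonin, noradrenaline and dopamine, and each turn releases an aldehyde, ammonia and hydrogen peroxide. In human monocytes MAOA is known as a gene strongly induced by interleukin-4 and interleukin-13. The product of Dio2, type II deiodinase, sits in the membrane of the endoplasmic reticulum and removes an iodine atom from thyroxine to make triiodothyronine, the form that binds thyroid hormone receptors. It is a selenoprotein, in which the catalytic residue is a selenocysteine read from a TGA codon that would otherwise stop translation, and in brown fat its gene is known to respond to cAMP.

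Maoa (ENSMUSG00000025037) lies at chrX:16619698-16687818 on the plus strand of mm10, and Dio2 (ENSMUSG00000007682) at chr12:90724552-90738438 on the minus strand. GENCODE M21 gives each gene 1 transcript, with 15 exons for Maoa and 2 for Dio2, and the same start and end as the deposited table. The Dio2 reading frame of 798 coding bases holds 2 annotated selenocysteine codons, and the coding sequence around the first, codon 130 at chr12:90729823-90729825, is shown because it sets this enzyme apart from ordinary proteins. It is written in the sense of the transcript, with the recoded TGA in capitals.
Dio2 codon 130: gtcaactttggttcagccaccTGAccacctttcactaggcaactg
No annotated gene overlaps Maoa. The noncoding gene Gm26512 starts on the opposite strand inside Dio2 and shares 100 of the 5815 exon bases (1.72%). The strand setting of the counting is not given in the sources used here, so reads in that stretch cannot be assigned to one of these genes.

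The sequences around the start sites are shown because they differ in the short motifs they hold. They run from 250 bases before to 50 bases after the RefSeq start (GRCm38.p6), on the strand of the gene, at chrX:16619448-16619747 for Maoa and chr12:90738989-90739288 for Dio2. Capitals mark the GC box GGGCGG, read on either strand, in Maoa, and the cAMP response element TGACGTCA and the TATA box TATAAA in Dio2.
Maoa: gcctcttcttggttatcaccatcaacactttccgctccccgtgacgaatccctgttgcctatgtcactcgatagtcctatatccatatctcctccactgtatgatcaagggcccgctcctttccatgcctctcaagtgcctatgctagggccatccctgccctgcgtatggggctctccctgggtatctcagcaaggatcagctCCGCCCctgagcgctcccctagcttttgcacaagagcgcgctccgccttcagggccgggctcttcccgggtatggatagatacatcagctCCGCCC
Dio2: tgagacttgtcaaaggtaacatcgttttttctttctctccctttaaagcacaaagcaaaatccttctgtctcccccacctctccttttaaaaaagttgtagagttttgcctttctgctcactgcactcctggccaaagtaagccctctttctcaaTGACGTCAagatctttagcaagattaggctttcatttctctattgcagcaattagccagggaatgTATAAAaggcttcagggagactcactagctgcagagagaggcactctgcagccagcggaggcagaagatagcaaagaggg
Among 32851 mouse promoters of this length, 35.7% hold a GC box, 1.79% the cAMP response element and 8.32% TATAAA on the sense strand. Maoa held a GC box on the minus strand 46 bases upstream of the start and another 44 bases downstream. Its window held neither the cAMP response element nor TATAAA. In Dio2 the cAMP response element began 95 bases and the TATA box 30 bases upstream of the start, and there was no GC box. The shorter motif TGACG (both strands), which is part of the full element, was found in both windows and in 20.8% of all promoters. The AP-1 motif TGANTCA (7.81% of promoters, both strands) had no match in either window. The RefSeq start of Dio2 lies 600 bases upstream of the gene end on which the deposited counts rest, while the Maoa starts coincide. These matches describe letters and not binding.

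Maoa was abundant in every library and higher after beta-glucan, by a mean ratio of 1.84. Its normalized counts, which are reads divided by a size factor of the library, were 1909.8, 2226, 2516, 2128, 1883, 2108, 1576 and 1699.5 in beta-glucan libraries 5, 6, 7, 8, 9, 10, 12 and 13. They were 922, 1027, 1172, 1410.1, 929.8, 1065, 1061 and 1143 in control libraries 2, 3, 5, 7, 9, 10, 12 and 13. The lowest beta-glucan library (12) lay above the highest control library (7), so the groups did not overlap. Means were 2006 ± 302 in beta-glucan and 1091 ± 156 in control libraries (SD, n = 8 each). The log2 fold change of beta-glucan over control, fitted with edgeR, was 0.88 ± 0.11 (SE). Spread was alike in both groups, with a coefficient of variation of 15.0% in beta-glucan and 14.3% in control libraries.

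Dio2 was an intermediate transcript after beta-glucan and ranged from 1 to 115 reads in control libraries. Beta-glucan libraries 5, 6, 7, 8, 9, 10, 12 and 13 had normalized counts of 267, 185, 435, 249, 284, 255, 315 and 257. Control libraries 2, 3, 5, 7, 9, 10, 12 and 13 had 1.16, 8.13, 50.2, 6.11, 37.7, 124 (library 10), 80.1 and 98.6. Controls 2, 3 and 7 were far below the rest and controls 10, 12 and 13 came nearest to the beta-glucan libraries, of which the lowest was number 6. The groups did not overlap. Reads behind the lowest values were 1 in control 2 (exact 95% Poisson interval 0.0253 to 5.57, counting error only), 7 in control 7 (2.81 to 14.4) and 8 in control 3 (3.45 to 15.8). The highest control, number 10, had 115 reads (94.9 to 138), far outside these intervals.

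The Dio2 means were 281 ± 72.3 in beta-glucan and 50.8 ± 46.3 in control libraries (SD, n = 8 each), a ratio of 5.53, and the medians were 262 and 44.0 in the same order. The fitted log2 fold change was 2.46 ± 0.51 (SE). In normalized counts the SD was thus larger in beta-glucan libraries. On the log2(normalized count + 1) scale the spread lay on the control side, with an SD of 0.35 in beta-glucan and 2.12 in control libraries. Controls 2, 3 and 7, with 1, 8 and 7 reads, weigh heavily on this scale, and counting error adds to their spread. Of 413 other listed genes with a control mean within a factor of 2 of that of Dio2, 2 had a larger control SD, and their median SD was 0.58. In beta-glucan libraries 168 of 718 genes of like mean had a larger SD than Dio2. For Maoa, 665 of 913 genes of like control mean varied more among the controls than Maoa did. All these comparison genes are listed ones and so had passed the authors' test. Genes of like level with a large spread may therefore be missing from them.

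**Figure D1:**
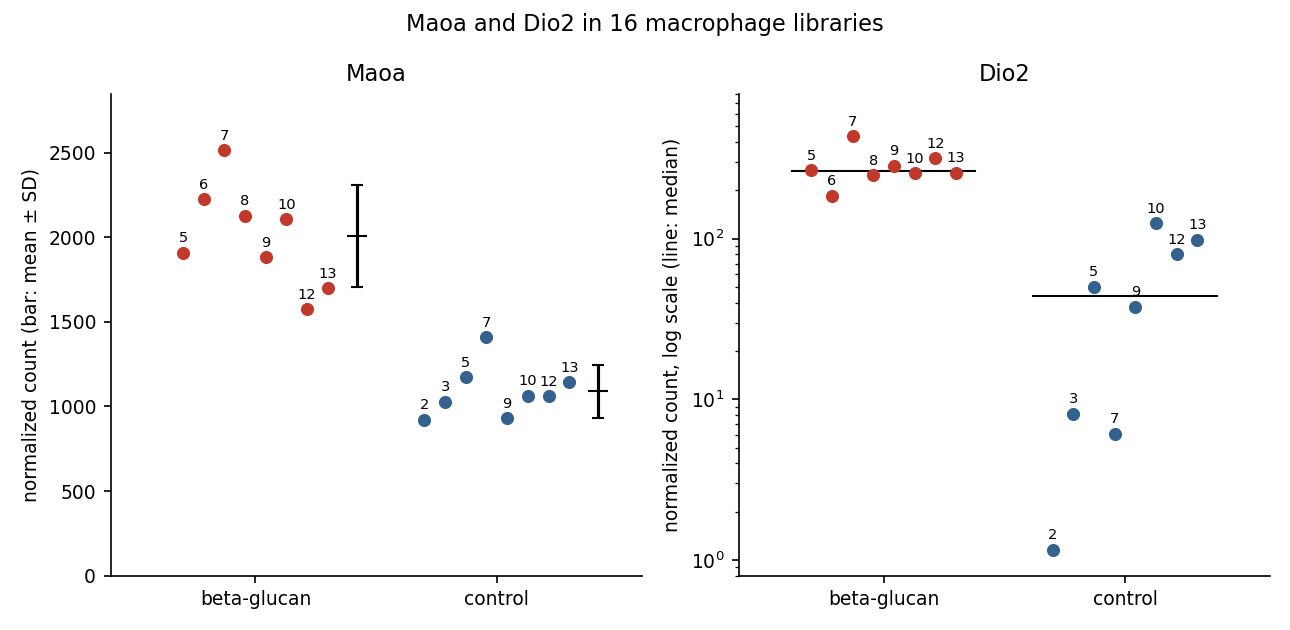
Normalized counts of Maoa (left, linear axis from 0, bars are mean ± SD) and Dio2 (right, log axis, lines are medians) in each of 8 beta-glucan and 8 control libraries, with the library number beside each point. Maoa lies between 1576 and 2516 in beta-glucan and between 922 and 1410.1 in control libraries, while Dio2 controls spread from 1.16 to 124 below the beta-glucan values of 185 to 435.

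Not overlapping between groups was seen for 231 of the 3071 listed genes (7.52%), and for 82 (2.67%) with beta-glucan higher, and nothing is read from the place of Maoa and Dio2 among them, since these values chose them. By size of the fitted fold change, counted from the highest, Dio2 stood at place 5 and Maoa at place 90 of 2738 listed genes that passed the filter on low counts, which both passed. The median log2 fold change of those 2738 genes was -0.41. Per gene length the pair differed widely in level. Maoa had 26.8 ± 4.04 FPKM in beta-glucan and 14.6 ± 2.09 FPKM in control libraries, and Dio2 had 2.69 ± 0.69 FPKM in beta-glucan and 0.49 ± 0.44 FPKM in control libraries (SD, n = 8 each). In FPKM, Maoa exceeded Dio2 by 6.97 to 16.8 times in beta-glucan libraries and by at least 11.9 times in every control.

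**Figure D2:**
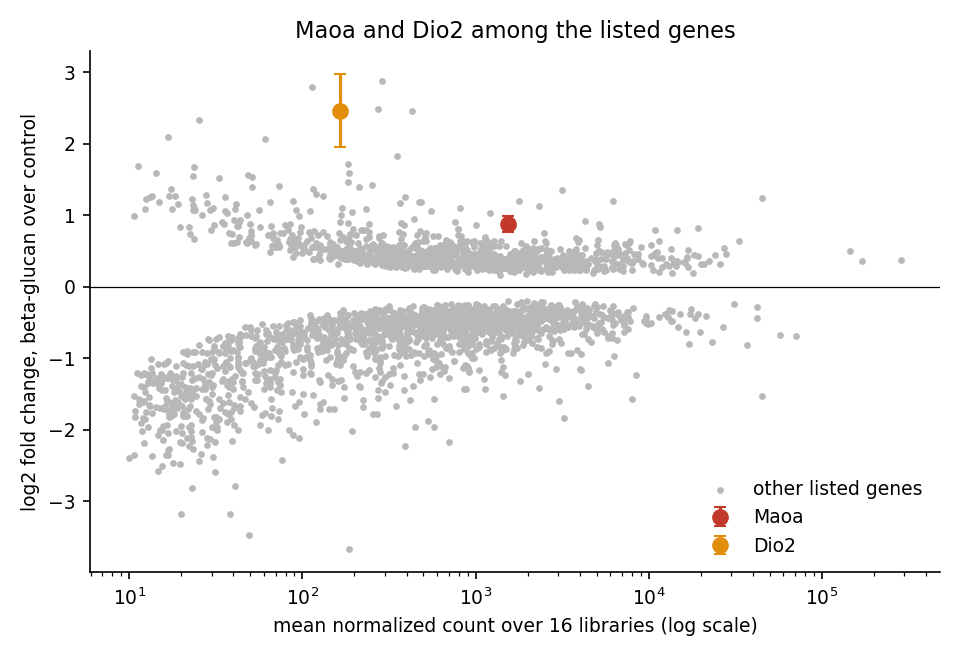
Log2 fold change of beta-glucan over control (vertical) against mean normalized count over 16 libraries (horizontal, log axis) for the 2738 listed genes fitted, with bars of 1 SE on Maoa and Dio2. Dio2 (2.46) lies near the upper edge at a moderate level, and Maoa (0.88) lies higher than most genes of similar abundance, while genes near 0 are missing because the deposited table lists only genes past an adjusted p of 0.05.

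The close relatives of both enzymes were not in the deposited table. These are Maob, the sister oxidase and neighbour of Maoa on chromosome X, Dio1, the other deiodinase that activates hormone, and Dio3, which inactivates it. The window of 500 kb on either side held 4 other protein-coding genes for Maoa (Cypt1, Efhc2, Maob and Ndp) and 2 for Dio2 (Cep128 and Nrxn3), and 0 genes of either window were in the table. Values of unlisted genes are not analysed here, so a gene not listed either missed the authors' threshold or was not tested.

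The other listed genes of amine handling and of Maoa control moved in both directions. Their list also holds 9 genes known for control of Maoa and 5 of flavin supply. Of 88 genes in the amine list without Maoa, 15 were in the table (17.0%, against 17.9% of all genes tested). In edgeR's quasi-likelihood test 7 rose (7.95%, against 4.14% of all genes) and 6 fell (6.82%, against 6.85%), and the median log2 fold change of the 15 was 0.35. Within these calls, 2 of the 9 genes known for control of Maoa rose (22.2%, against 4.14% of all genes) and 1 fell (11.1%, against 6.85%). All genes are the 17130 tested by the authors. Shares of this list and of those below are instead over every gene in the list, tested or not. Which list genes were tested is not known here, so these shares may be too low beside those over tested genes. Only listed genes could be fitted in edgeR, so unlisted ones count as not called. With TMM factors computed from the listed genes, which raised all log2 fold changes by a median of 0.24, 7 rises and 0 falls were called. Such factors are distorted, since every listed gene was selected for differing between the groups and 1992 of 3071 were lower. They do not show that the calls depend on a proper scaling. Leaving out beta-glucan library 7, 8 or 12 or control 2, 3, 5 or 7 brought the 13 calls to 7 or 8, and leaving out controls 2 and 3 together to 4, all rises. Among the 6 other amine oxidases, Paox and Smox fell (33.3%, against 6.85% of all genes). These 2 oxidise acetylated spermine and spermine and not monoamines. Paox had 798 ± 130 normalized counts in beta-glucan and 1149 ± 231 in control libraries (log2 fold change -0.53 ± 0.13, edgeR adjusted p = 0.0145; SD, n = 8 each). Smox was at -0.56 ± 0.15 (edgeR adjusted p = 0.0250) and the copper amine oxidase Aoc2 at -0.99 ± 0.39, a value that did not pass (adjusted p = 0.118). Sat1, which acetylates spermidine and spermine for breakdown, fell by 0.51 on the log2 scale (edgeR adjusted p = 0.0181).

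The amine list holds 11 aldehyde dehydrogenases and aldehyde reductases that can take up the aldehydes left by monoamine oxidase. Only Aldh1b1, a mitochondrial aldehyde dehydrogenase, was listed among them (9.09%, against 17.9% of all genes tested). Aldh1b1 had between 289 and 403 normalized counts in beta-glucan and between 180 and 281 in control libraries. Its groups thus did not overlap, as for 7.52% of listed genes in either direction. Aldh1b1 rose by 0.59 ± 0.11 on the log2 scale (edgeR adjusted p = 0.00286). Among 15 genes of amine synthesis and storage, 3 rose (20%, against 4.14% of all genes) and 1 fell (6.67%, against 6.85%). The rises were Odc1, the first enzyme of polyamine synthesis (0.41 ± 0.11, adjusted p = 0.0259), and Gch1 (0.38 ± 0.11, adjusted p = 0.0393) and Spr (0.46 ± 0.12, adjusted p = 0.0147), the first and last enzymes of tetrahydrobiopterin synthesis. Pts, the enzyme between them, fell (-0.58 ± 0.16, edgeR adjusted p = 0.0272). Tetrahydrobiopterin is a cofactor of the hydroxylases that make monoamines and also of nitric oxide synthases. The hydroxylase genes Th, Tph1 and Tph2 were not listed.

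Monoamine uptake transporters (7 genes) and genes of flavin supply (5 genes) had 0 listed members, where 17.9% of all genes tested were listed. Of 29 amine receptor genes, 3 were listed (10.3%, against 17.9% of all genes tested). The alpha-1A adrenoceptor gene Adra1a rose (0.90 ± 0.26, edgeR adjusted p = 0.0324), with 989.6 ± 258 normalized counts in beta-glucan and 529 ± 287 in control libraries (SD, n = 8 each). The serotonin receptor gene Htr2a was at 1.14 ± 0.42, a value that did not pass (adjusted p = 0.0931). Without controls 2 and 3 Adra1a was not called.

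Genes known for control of Maoa were mixed. Cdca7l, whose human protein is a repressor of the MAOA promoter, rose by 0.75 ± 0.14 (edgeR adjusted p = 0.00281), with 646 ± 77.4 normalized counts in beta-glucan and 384 ± 90.9 in control libraries (SD, n = 8 each). Sirt1, a deacetylase reported to act upstream of Maoa in mouse brain, rose by 0.35 ± 0.11 (adjusted p = 0.0432). Il4ra, the receptor chain shared by interleukin-4 and interleukin-13, fell (-0.56 ± 0.16, edgeR adjusted p = 0.0311). The genes in the list of alternative activation, only some of which interleukin-4 and interleukin-13 induce, were called only downward. Whether the genes that fell respond to these cytokines in these cells was not tested. Of the 20, 5 were listed and 4 fell, Il4ra among them (20%, against 6.85% of all genes; median log2 fold change of the 5 listed -0.98). Cd163, a haemoglobin scavenger receptor, fell by 1.55 on the log2 scale (adjusted p = 0.00152), the lectin receptor gene Clec10a by 1.20 (adjusted p = 0.00798) and the mannose receptor gene Mrc1 by 0.80 (adjusted p = 0.00418). Of 15 genes for removal of hydrogen peroxide, 3 were listed (20%, against 17.9% of all genes tested). The sulfiredoxin gene Srxn1 rose (0.53 ± 0.13, edgeR adjusted p = 0.0123), while catalase (Cat, -0.48, adjusted p = 0.0544) and the mitochondrial peroxiredoxin gene Prdx3 (0.36, adjusted p = 0.0534) did not pass.

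**Figure D3:**
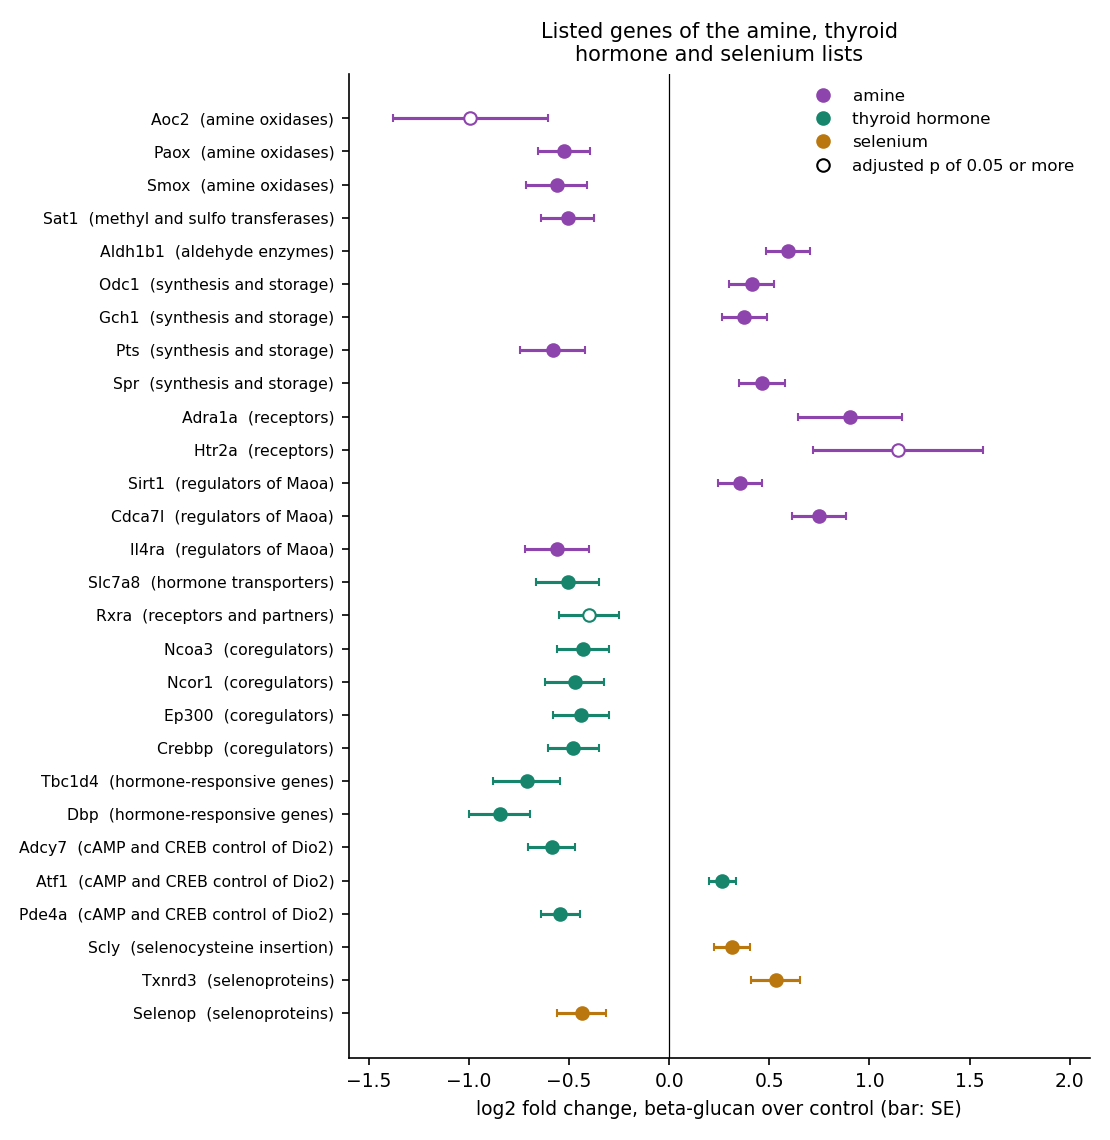
Log2 fold change of beta-glucan over control with SE bars for the listed genes of the amine, thyroid hormone and selenium lists that are described here, without Maoa and Dio2, where filled points passed an adjusted p of 0.05 in edgeR and open points did not. Amine genes lie on both sides of 0, from -0.99 (Aoc2) to 1.14 (Htr2a), and of the thyroid hormone genes only Atf1 (0.26) lies above 0.

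The other listed genes of thyroid hormone action and of Dio2 control were mostly lower after beta-glucan, as were 1992 of all 3071 listed genes. Their list also holds 17 genes of cAMP signalling and 7 of Dio2 protein turnover. Of 68 genes in that list without Dio2, 12 were in the table (17.6%, against 17.9% of all genes tested). In edgeR 10 fell (14.7%, against 6.85% of all genes) and 1 rose (1.47%, against 4.14%). The median log2 fold change of the 12 was -0.49, near the -0.41 of all 2738 listed genes fitted. With TMM factors from the listed genes 4 of the falls were called, those of Tbc1d4, Dbp, Adcy7 and Pde4a. Without controls 2 and 3 the called falls were also 4, those of Dbp, Adcy7 and Pde4a among them, with 0 rises. Leaving out any 1 library other than beta-glucan 5 or control 7, 12 or 13 brought the 11 calls to 6 or 7, and the calls of Dbp, Tbc1d4, Adcy7, Pde4a and Atf1 held in all 16 such fits.

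By role, 1 of 7 hormone transporters was listed (14.3%, against 17.9% of all genes tested). Slc7a8, an amino acid transporter that also carries iodothyronines, fell (-0.51 ± 0.16, edgeR adjusted p = 0.0435). The thyroid hormone receptor genes Thra and Thrb were not listed, and their partner Rxra was at -0.40 ± 0.15, a value that did not pass (adjusted p = 0.0940). Of 11 coregulators 5 fell (45.5%, against 6.85% of all genes), and 4 of them are described here. The corepressor gene Ncor1 was at -0.47 (adjusted p = 0.0459), and the coactivator genes Ncoa3, Crebbp and Ep300 were at -0.43 (adjusted p = 0.0376), -0.48 (adjusted p = 0.0237) and -0.44 (adjusted p = 0.0485). These 4 serve many other nuclear receptors too.

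Of 14 genes in the list of thyroid hormone-responsive genes, 2 were listed and both fell (14.3%, against 6.85% of all genes), and neither is specific to the hormone. Dbp, a transcription factor of the circadian clock, had 499 ± 73.2 normalized counts in beta-glucan and 899 ± 247 in control libraries (-0.85 ± 0.15, edgeR adjusted p = 0.00255; SD, n = 8 each), and Tbc1d4, a Rab GTPase activator of glucose transport, was at -0.71 ± 0.17 (adjusted p = 0.0114). The 5 genes of hormone binding and sulfation had 0 listed members, where 17.9% of all genes tested were listed. The 7 genes of Dio2 protein turnover, with the ubiquitin ligase adaptor Wsb1 among them, also had 0.

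Of the 17 genes of cAMP signalling, through which Dio2 is induced in other tissues, 1 rose (5.88%, against 4.14% of all genes) and 2 fell (11.8%, against 6.85%). Pde4a, a phosphodiesterase that degrades cAMP, had 291 to 362 normalized counts in beta-glucan and 386 to 557 in control libraries. The groups did not overlap, as for 7.52% of listed genes in either direction, and Pde4a fell by 0.54 on the log2 scale (edgeR adjusted p = 0.00255). Adcy7, an adenylyl cyclase that makes cAMP, fell by 0.59 (adjusted p = 0.00501). Atf1, a CREB family factor that binds cAMP response elements, had 1070 to 1303 normalized counts in beta-glucan and 924 to 1066 in control libraries and rose by 0.26 ± 0.07 (edgeR adjusted p = 0.0177). The other 14 genes were not listed, and cAMP itself was not measured.

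Of 34 genes of selenium use without Dio2, 3 were listed (8.82%, against 17.9% of all genes tested), 1 of 12 in selenocysteine insertion and 2 of 23 selenoprotein genes, with 1 gene in both roles. Scly, which frees selenium from selenocysteine, rose (0.31 ± 0.09, edgeR adjusted p = 0.0332), as did the thioredoxin reductase gene Txnrd3 (0.53 ± 0.12, adjusted p = 0.0102). Selenop, the selenium carrier, fell (-0.44 ± 0.12, adjusted p = 0.0278). Several calls in these lists were lost when 1 library was left out. When each of the 16 libraries was left out in turn, the edgeR call was lost in 13 fits for Sirt1, Slc7a8, Ncor1 and Ep300, in 12 for Gch1 and Ncoa3, in 11 for Scly, in 9 for Adra1a and in 8 for Il4ra. It was lost in 5 fits for Pts and Selenop, in 4 for Smox, in 3 for Odc1 and in 2 for Crebbp. The calls of Paox, Sat1, Aldh1b1, Spr, Cdca7l, Txnrd3, Srxn1, Mrc1, Clec10a and Cd163 held in all 16 fits.

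The authors' deposited enrichment tables hold Dio2 and Maoa in several terms, and 0 of these passed an adjusted p of 0.05 there. The KEGG pathway of thyroid hormone signalling had 29 of 105 background genes listed (27.6%, against 18.3% of the KEGG background). The authors' deposited table gave 8 of them as higher, Dio2 included, and 21 as lower (adjusted p = 0.248). Of the 12 KEGG pathways that hold Maoa, the authors' deposited table gave the lowest adjusted p to the dopaminergic synapse (0.443), with 14 listed genes in each direction. In that pathway 24.1% of the background genes were listed, against 18.3% of the KEGG background. For the GO process amine metabolic process, the authors' deposited table gave 7 higher and 13 lower genes (adjusted p = 0.307). In that term 29.85% of the background genes were listed, against 17.36% of the background. Of 157 background genes of the mitochondrial outer membrane, where monoamine oxidase A sits, 40 were listed (25.5%, against 17.3% of the background). The authors' deposited table gave 32 of them as higher, Maoa included, and 8 as lower (adjusted p = 0.129).

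Within a group, Maoa and Dio2 were not shown to vary together from library to library. Across the 8 beta-glucan libraries Pearson's r of their log2(normalized count + 1) values was 0.118 (exact permutation p = 0.809) and Spearman's rho -0.262 (exact permutation p = 0.536). Across the 8 control libraries r was 0.0920 (exact permutation p = 0.872) and rho 0.310 (exact permutation p = 0.462). Adjusted over the 2 groups, the Pearson p-values were both 0.872 and the Spearman p-values both 0.536 (two-sided exact permutation tests). The beta-glucan value rested on library 7, the highest in both genes, since r was -0.763 without it. Without libraries 7 and 12, the farthest from the Maoa median, r was -0.63, and without controls 2 and 7 it was 0.373 among the controls. Control 7 had the highest Maoa and the second lowest Dio2 of its group.

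The genes most like each enzyme from library to library differed between the pair. Likeness was measured as Pearson's r over 16 libraries after each group's mean was subtracted, which removes the difference between group means. It was taken among 2293 listed genes with a mean normalized count of at least 50. All of these were listed for differing between the groups, and the controls also spread along that difference, as described below. That spread was not removed. These r values are a description of libraries that share depth and processing. For Dio2 the 5 nearest were Cd200 (0.955), Il7r (0.886), Cdca7l (0.872), Fam136a (0.859) and Kctd17 (0.857). Cd200, an inhibitory surface glycoprotein, had 395 to 576 normalized counts in beta-glucan libraries and 9.26, 42.7, 63.3, 22.7, 62.5, 133, 161 and 169 in controls 2, 3, 5, 7, 9, 10, 12 and 13. Its controls were thus low and high in nearly the libraries in which Dio2 was, with number 2 lowest and numbers 10, 12 and 13 highest. Within the groups, r between Dio2 and Cd200 was 0.534 in beta-glucan and 0.965 in control libraries (n = 8 each). Dio2 varied far more among controls (log2 SD 2.12, against 0.35 in beta-glucan libraries), so its r over 16 libraries rests mainly on the controls.

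For Maoa the 5 nearest were Dnajb2 (0.744), H2-M2 (0.734), Met (0.719), Clec4e (0.693) and Traf2 (0.663). Within the groups, r between Maoa and the co-chaperone gene Dnajb2 was 0.638 in beta-glucan and 0.861 in control libraries. For Met, the receptor of hepatocyte growth factor, it was 0.978 in beta-glucan and 0.508 in control libraries (n = 8 each). Clec4e encodes Mincle, a receptor for fungal and mycobacterial glycolipids, and Traf2 an adaptor of tumour necrosis factor receptors. H2-M2 has close paralogs, so its count is uncertain. By Spearman's rho, 1 of these 5 genes for Maoa (Met) and 2 of the 5 for Dio2 (Cd200 and Cdca7l) were also among the nearest 5. The 5 nearest by Pearson's r were all higher with beta-glucan for both enzymes, as were 1079 of the 3071 listed genes.

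**Figure D4:**
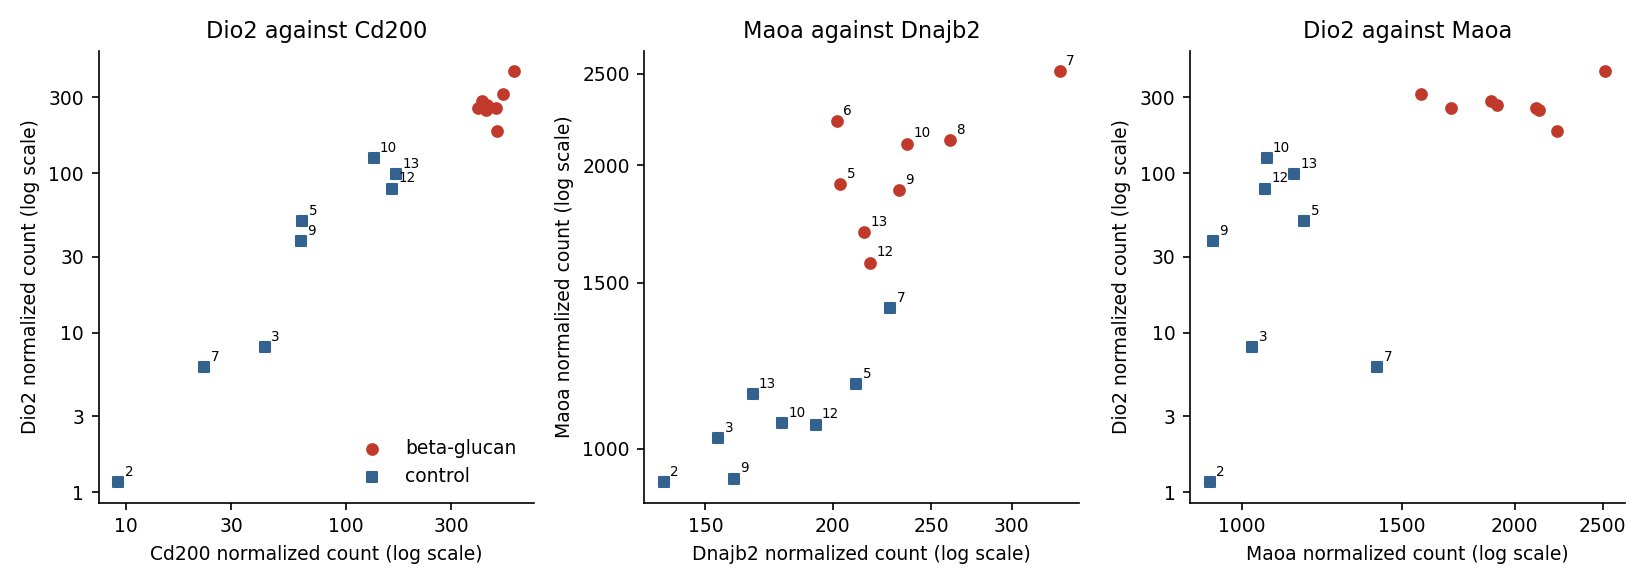
Normalized counts on log axes in each library for Dio2 against Cd200, Maoa against Dnajb2, and Dio2 against Maoa, with beta-glucan libraries as circles and control libraries as squares and with library numbers beside the controls and, in the middle panel, beside all points. Dio2 and Cd200 are low together in controls 2, 3 and 7 and high together in controls 10, 12 and 13, while control 7 is the highest control for Maoa and among the lowest for Dio2.

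The controls also differed from each other over the listed genes as a whole. On the first principal component of 2376 other listed genes (63.2% of their variance), set to average 1 over beta-glucan and 0 over control libraries, the beta-glucan libraries took values of 0.697 to 1.29. Control 12 was at 0.549, control 13 at 0.486 and the remaining controls were spread from -0.467 to 0.131. Because these genes were listed for differing between the groups, such a component favours the group difference. Among the 8 controls Dio2 went with this position, with r = 0.711 (exact permutation p = 0.0438) and rho = 0.738 (exact permutation p = 0.0458), but neither passed after adjustment over the 4 relations computed for both genes and groups (exact permutation, adjusted p = 0.175 and 0.183). Without controls 12 and 13, r was 0.619 (exact permutation p = 0.167). For Maoa among the controls r was 0.164 (exact permutation p = 0.687). In beta-glucan libraries r was 0.522 for Dio2 (exact permutation p = 0.191) and 0.0741 for Maoa (exact permutation p = 0.857). This relation was chosen after the values of the libraries were seen. Without controls 12 and 13 the fitted log2 fold change was 0.88 for Maoa and 2.89 for Dio2, and without controls 2 and 3 it was 0.83 for Maoa and 2.09 for Dio2.

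Markers of the cultured cell moved with the groups too. Of 8 macrophage markers 5 were listed, where 17.9% of all genes tested were listed. Adgre1 (F4/80) at -0.56, Csf1r, the M-CSF receptor, at -0.68 and Mertk at -0.73 fell (edgeR adjusted p = 0.00250, 0.00276 and 0.0118), and Cd14 rose (0.52, adjusted p = 0.0249). Itgam was at -0.50 and did not pass (adjusted p = 0.0771). The summed normalized count of the 5 was 74529 to 84808 in beta-glucan and 85337 to 158632 in control libraries. Of 8 osteoclast, 7 dendritic cell, 7 neutrophil and 8 mast cell or basophil markers, 0 were listed. The same held for 10 fibroblast or osteoblast, 5 platelet or megakaryocyte, 7 lymphocyte and 4 neuron markers. Of 5 endothelial markers Kdr was listed (0.58, edgeR adjusted p = 0.103, did not pass). A marker not listed missed the authors' threshold or was not tested, so nothing is read from it on whether such cells were present. Other genes of these cell types were not looked at as markers. The part of these markers in the levels of Maoa and Dio2 was not tested. In bulk RNA of this kind, a change in the share of cells with a transcript and a change in RNA per cell cannot be told apart.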

How the data were processed

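RNA-seq of 8 beta-glucan and 8 control macrophage libraries was used. Per the submitters' processing notes, the tools were CASAVA, STAR 2.5, HTSeq 0.6.1 and DESeq2, with the mm10 build. The sources used here give neither their roles nor the annotation or strand setting. The deposited table holds read counts per gene, a normalized count (a signal: reads divided by a size factor) and FPKM made by the authors, with the authors' log2 fold change, p-value and adjusted p. It lists only genes past an adjusted p of 0.05, 3071 of 17130 tested. The size factors, recovered from the deposited values, ran from 0.864 to 1.16, and reads on listed genes from 4382665 to 5600727 per library.

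Counts were tested with edgeR 4.0.16 (quasi-likelihood, R 4.3.3, limma 3.58.1), with the authors' size factors as library sizes, a filter on low counts, and p-values adjusted (Benjamini-Hochberg) over 17130 genes. Only listed genes could be fitted, and these had already passed the authors' test of the same contrast in the same libraries. An edgeR call is therefore not independent support for a difference. The script was tested on simulated data. DESeq2 1.42.0 was an alternative, as were other scalings, no filter, a replicate block and leaving libraries out. Exact permutation tests used scipy 1.17.1. The labels do not tell whether each library had its own mouse or culture. The p-values thus measure only the spread between these libraries, which may be technical. Poisson intervals cover counting error only.

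Maoa, Dio2 and the gene lists were chosen with earlier results of these data known. Named genes were Maoa, Dio2, the listed genes of the lists, and the 5 genes most like each of the pair. Gene models came from GENCODE M21 and promoters from RefSeq (GRCm38.p6), where both genes matched. Unlisted genes are not analysed here. A few genes of the lists are counted but not reported here by name.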

Additional observations from a re-analysis of the deposited data

Results flagged for a closer look

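In 4 cases 1 library stood apart from the other 7 of its group by more than Dixon's 95% critical value for 8 samples. Chance alone marks about 1 in 20 groups, and 96 groups of 48 genes were looked at. Neither Maoa nor Dio2 was among the 4. The amine oxidase gene Aoc2 had 114.6 normalized counts in control 5, with its 7 fellow controls at 29.4 to 64.0. Met, the gene most like Maoa by Spearman's rho, had 127.6 in control 5, and its other controls spread from 41.0 to 76.0. Dnajb2, the gene most like Maoa by Pearson's r, had 334.2 in beta-glucan library 7, the library with the highest Maoa, against 202.0 to 260.7 in the other beta-glucan libraries. The retinoid receptor gene Rxra had 2730.0 in beta-glucan library 13, against 3665 to 4372 in the other beta-glucan libraries.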

How the results depend on the processing

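The table lists only genes that passed the authors' test, no label gives independent mice, and a single read sets the lowest Dio2 value; counting error limits Dio2 in controls 2, 3 and 7. Maoa stayed higher in beta-glucan libraries in every alternative run, with a log2 fold change of 0.82 to 0.94 when each library was left out in turn and 1.10 with TMM factors from the listed genes. Dio2 also stayed higher, at 2.28 to 2.78 with each library left out and between 2.09 and 2.89 in the other alternatives. TMM raised the median of all log2 fold changes by 0.24, and size factors from the listed genes by 0.20. Both scalings are distorted, because they rest on genes selected for differing between the groups, of which 1992 of 3071 were lower.

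The edgeR test called 1882 genes (709 higher and 1173 lower), and DESeq2 called 2942. TMM called 1459 (1041 higher and 418 lower) and size factors from the listed genes 1566 (1056 higher and 510 lower). Leaving out each library gave 1150 to 2276, with 1206 without beta-glucan 8, 1150 without control 2, 1220 without control 3 and 1223 without control 5. Without controls 2 and 3 there were 629, with the replicate block 355, and in the 12 libraries with shared numbers, an alternative chosen after seeing the data, 68. Under these settings the 13 calls of the amine list became 7 with TMM, 7 with size factors, 4 without controls 2 and 3, 5 with the block, 2 in the 12 libraries, and 7 to 12 with each library left out. The 11 thyroid calls became 5, 5, 4, 2, 0, and 6 to 12 in that order. The 3 calls of the selenium list became 1 without controls 2 and 3, 0 with the block, 0 in the 12 libraries, and 1 to 3 with each library left out (1 without beta-glucan 8 or control 2, 3 or 7). The 1 peroxide call became 2 with TMM, 2 with size factors, 3 with DESeq2, 3 with no filter, 3 without controls 12 and 13, 0 without controls 2 and 3, 0 with the block, 0 in the 12 libraries, and 1 to 3 with each library left out (2 without control 10, 3 without control 12 or 13). The 4 alternative activation calls became 2 without controls 2 and 3, 1 with the block, 1 in the 12 libraries, and 3 to 5 with each library left out. No listed gene of these lists changed sign in any alternative run. The correlation of Maoa and Dio2 turned to -0.63 in beta-glucan libraries without numbers 7 and 12, and ran from -0.763 (without number 7) to 0.443 with each left out in turn. Among controls it ran from -0.372 (without number 2) to 0.651. The cause was not tested.

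The groups share 6 replicate numbers. Correlations of same-numbered libraries ran from -0.0627 to 0.535, 3 of them not over 0.1. Of 6 beta-glucan libraries, 1 correlated best with its own number. The main fit therefore did not use the numbers as pairs, although these correlations do not settle whether the numbers pair libraries. Beta-glucan 12 correlated best with control 13 (0.444) and beta-glucan 13 with control 12 (0.384). The replicate block was fitted on the 12 libraries with shared numbers, where 355 genes were called with it and 68 without it. Whether a number marks a shared batch or culture was not tested. If it does, the p-values of the main fit ignore that pairing. With the replicate block Maoa was at 0.78 and Dio2 at 2.38.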
